A study of Mus musculus with 14 samples.

Results

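The regions described here are the hypomethylated regions (HMRs) of 5 autosomal blocks in which clone E of the mouse mammary carcinoma line 4T1 had a high mean methylation level. An HMR is a segment with little DNA methylation compared with its surroundings. The blocks were the HMRs that start between 140 and 150 Mb on chromosome 1, 80 and 90 Mb on chromosome 9, 30 and 40 Mb on chromosome 10, 40 and 50 Mb on chromosome 15, and 70 and 80 Mb on chromosome 16. They hold 1181 of the 101564 HMRs, which is 1.16% of all HMRs and 1.21% of the 97247 autosomal ones. By block there were 331, 220, 134, 177 and 319 HMRs on chromosomes 1, 9, 10, 15 and 16.

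The study grew clonal lines from 4T1 cells, each from 1 sorted cell, and scored in a pool how far they entered the blood vessels (intravasation). Genomic DNA of 6 clones and of the parental line was bisulfite converted and sequenced in 2 rounds each. The intravasating clones were E and T, and the 4 non-intravasating ones I, K, L and P. All were grown in the same medium, and the labels give no treatment and no engineered gene. Each clone is therefore 1 line from 1 cell, with 1 deposited level per HMR, and differences between clones cannot be set against a spread between replicates of a clone. The parental line was not analysed here.

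DNA methylation in mammals sits mainly on cytosines followed by guanine (CpG). Most of the genome is methylated, and short unmethylated stretches typically mark CpG-rich promoters and active regulatory elements. Cultured and tumour cells often also lose methylation over long, gene-poor, late-replicating stretches, known as partially methylated domains, in which levels are intermediate and differ between cell lines. Whether the blocks lie in such domains was not tested.

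The deposited levels are fractions from 0 to 1. Coverage is unknown, so no interval from counting error can be given. Of the levels above 0 in the blocks, 58.5% (clone L) to 67.3% (clone I) equal, within 1e-06, a fraction with a denominator of at most 30, and so may rest on few reads or sites. Levels of exactly 0 made up 9.23% (clone E) to 22.3% (clone K) of the blocks' values, against 24.8% to 34.8% over all autosomal HMRs. In the blocks 94 HMRs (7.96%) were at 0 in all 6 clones, against 17.9% of autosomal HMRs. A 0 can be an unmethylated region or one without a usable estimate. Coordinates are those of the deposited table. The submitters' processing notes name mm10, but 379 HMRs on chromosome 7 and 96 on chromosome 1 lie beyond the final annotated gene of GRCm38, the mm10 assembly, so the build was not established. For this reason no gene, exon, intron or sequence is assigned to an HMR.

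Clone E had the highest mean level of the 6 clones in every block. Over all 1181 HMRs its mean was 0.436, followed by 0.336 in clone I, 0.239 in P, 0.218 in K, 0.187 in T and 0.156 in L. Over the autosomal HMRs outside the blocks the order was the same, but the clones lay close together, with means of 0.192 in E, 0.172 in I, 0.160 in P, 0.156 in K, 0.121 in T and 0.110 in L. Clone E thus lay 0.209 above the mean of the other 5 clones in the blocks and 0.0477 above it elsewhere. These values chose the blocks, so they are a description without a test.

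Each block had its own profile over the clones. On chromosome 1 the means were 0.479 in E, 0.417 in I, 0.270 in K, 0.263 in P, 0.216 in T and 0.213 in L. Chromosome 15 had the highest level of clone E, 0.482, with 0.410 in I, 0.299 in P, 0.252 in K, 0.232 in T and 0.135 in L. Chromosome 10 was alike, at 0.455 in E, 0.358 in I, 0.291 in P, 0.256 in K, 0.221 in T and 0.152 in L. In these 3 blocks clones E and I stood above the other 4, and clones K and P came next. The block on chromosome 9 had the lowest means of the 5 blocks for clones E, P, K and L, at 0.374 in E, 0.30 in I, 0.185 in T, 0.176 in P, 0.143 in K and 0.119 in L. On chromosome 16 clone E was farthest from clone I, at 0.401 against 0.228 in I, 0.201 in P, 0.180 in K, 0.135 in L and 0.120 in T.

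**Figure D1:**
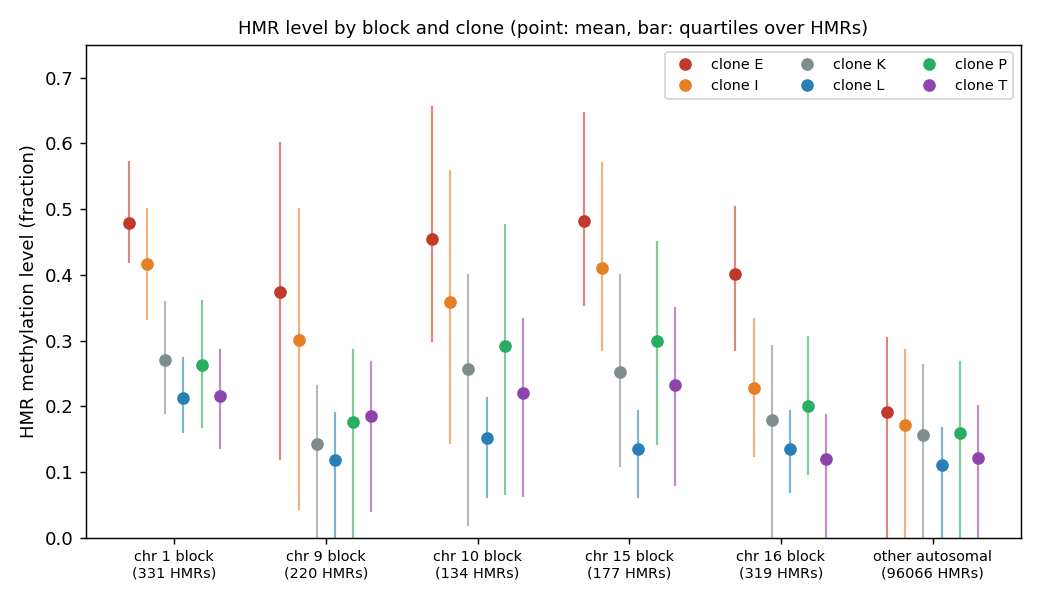
HMR methylation level (fraction, vertical axis) in each block and in the other autosomal HMRs, by clone; points are means over HMRs and bars run from the lower to the upper quartile over HMRs. Clone E is the highest point in all 5 blocks, at 0.374 to 0.482, and the 6 clones lie between 0.110 and 0.192 outside the blocks.

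Among the 258 autosomal windows of 10 Mb, the blocks ranked 1 to 5 by the difference of clone E from the mean of the other 5 clones: chromosome 16 (0.229), 15 (0.216), 1 (0.204), 10 (0.199) and 9 (0.190). The next window, on chromosome 2 from 50 to 60 Mb, was at 0.162, and the median window at 0.0433. By the mean of clone E alone the blocks ranked 4, 1, 2, 3 and 6 in that order of chromosomes. The window on chromosome 2, at 0.398, was above the block on chromosome 9. Clone E was above the mean of the other 5 clones in 257 of the 258 windows and was the highest clone in 240.

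The blocks were chosen for a high mean in clone E, but also ranked 1 to 5 by its difference from the other clones. The levels of the other clones may thus have entered the choice. Over all members the means of the other clones were also higher than over the HMRs outside. By block there were 2 exceptions, clone K on chromosome 9 (0.143 against 0.156) and clone T on chromosome 16 (0.120 against 0.121). Over 2377 autosomal windows of 1 Mb, levels of clones E and I correlated at r = 0.949, and those of E and T at 0.838. The points share the DNA sequence and the lengths of their HMRs between clones, and levels at places chosen on clone E are not free of that choice. Clone I ranked 1, 2, 3 and 5 among the 258 windows by its mean on chromosomes 1, 15, 10 and 9, and 44 on chromosome 16. Clone T ranked 2, 3, 4 and 13 on chromosomes 15, 10, 1 and 9, and 139 on chromosome 16. Clone L, the lowest clone in 193 of the 258 windows, had its highest window of all on chromosome 1, at 0.213, and ranked 12, 33, 34 and 95 on chromosomes 10, 15, 16 and 9. Clone K ranked 2, 3 and 4 on chromosomes 1, 10 and 15, and 76 and 170 on 16 and 9. Clone P ranked 1, 2 and 6 on chromosomes 15, 10 and 1, and 54 and 101 on 16 and 9.

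Clone I also stood above the remaining clones, more so in 4 blocks than on chromosome 16. It lay 0.181 above the mean of K, L, P and T on chromosome 15, 0.176 on chromosome 1, 0.145 on chromosome 9 and 0.128 on chromosome 10. These ranked 1, 2, 4 and 5 of the 258 windows. On chromosome 16 the same difference was 0.0690, rank 30. In turn clone E exceeded clone I by 0.174 on chromosome 16, the widest such difference of the 258 windows, and by 0.0627 to 0.0966 in the other 4 blocks. The difference between the 2 patterns has no replicate and was not tested.

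**Figure D2:**
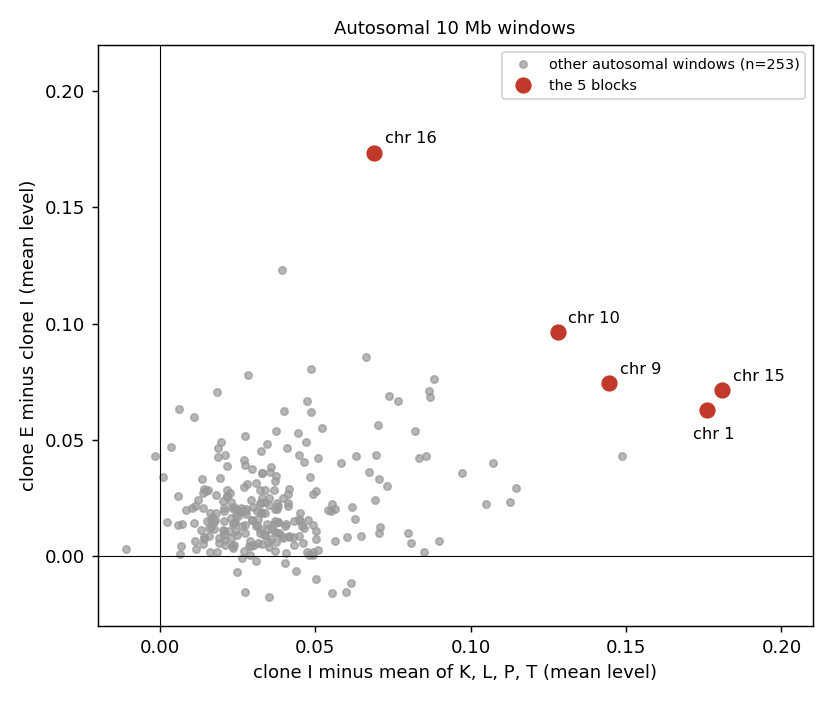
Each point is an autosomal 10 Mb window; the horizontal axis gives clone I minus the mean of clones K, L, P and T and the vertical axis clone E minus clone I, both as differences of mean level (fraction). The blocks on chromosomes 1, 9, 10 and 15 lie to the right, at 0.128 to 0.181 on the horizontal axis, and chromosome 16 lies at the top, at 0.174 on the vertical axis.

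Counts were also taken HMR by HMR. Clone E lay at least 0.2 above the highest of the other 5 clones at 163 of the 1181 HMRs (13.8%), where the background over autosomal HMRs was 1.33%. The blocks were chosen on clone E, so nothing is read from this count. By block it was 87 of 319 on chromosome 16 (27.3%), 33 of 220 on chromosome 9 (15%), 14 of 134 on chromosome 10 (10.4%), 20 of 331 on chromosome 1 (6.04%) and 9 of 177 on chromosome 15 (5.08%). Without clone I among the others, the total was 419. Clones E and I were both at least 0.2 above the highest of K, L, P and T at 109 HMRs (9.23%), against a background of 0.423%. Of these, 50 were on chromosome 1, 34 on chromosome 9, 13 on chromosome 15, 8 on chromosome 10 and 4 on chromosome 16. This count also requires a high clone E, so nothing is read from it. Both intravasating clones were at least 0.2 above all 4 others at 0 members, against 25 autosomal HMRs (0.0257%). With a background this small, nothing is read from the 0.

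The remaining clones stood apart at few HMRs. Clone I was at least 0.2 above all others at 9 members (0.762%, background 0.385%). Clone L was at least 0.2 below all others at 28 (2.37%, background 0.873%), of which 12 were on chromosome 10 and 9 on chromosome 15. Clone T was that far below at 7 (0.593%, background 0.305%). Clones L and T were that far above at 1 HMR each (0.0847%, backgrounds 0.391% and 0.0689%). Clones E and I were that far below at 0, with backgrounds of 0.0329% and 0.0391%. Clones K and P were that far above the others at 0 members each, with backgrounds of 0.258% and 0.172%, and that far below at 1 each, with backgrounds of 0.101% and 0.0586%. Of the 1087 HMRs above 0 in any clone, clone E alone was highest at 805 (74.1%) and clone I at 149 (13.7%), whereas clone L alone was lowest at 434 (39.9%) and clone T at 256 (23.6%). Over autosomal HMRs the shares were 33.2% for E highest, 20.4% for I highest, 31.6% for L lowest and 19.7% for T lowest. The blocks were chosen on clone E, so nothing is read from its share.

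Level followed HMR length. In the blocks, HMRs shorter than 2 kb were low in all clones, including E, while longer ones carried the high level of clone E. The 77 HMRs under 2 kb had a mean of 0.0721 in clone E and 0.0774 as the mean of the other 5 clones, and clone E was at least 0.2 above the others at 0 of them. The 280 HMRs of 2 to 5 kb were at 0.379 in E against 0.199. For the 626 of 5 to 10 kb the levels were 0.490 against 0.253, and for the 198 of 10 kb or more 0.491 against 0.242. Outside the blocks clone E was at 0.101, 0.202, 0.224 and 0.179 in the 4 classes, against 0.0972, 0.157, 0.159 and 0.122. The length classes were chosen after the values were seen.

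The step between the shortest class and the rest was present in each block. Clone E was at 0.0238 under 2 kb and at 0.507 from 5 to 10 kb on chromosome 1. The matching pairs were 0.0289 and 0.459 on chromosome 9, 0.0803 and 0.583 on chromosome 10, 0.0571 and 0.529 on chromosome 15, and 0.190 and 0.419 on chromosome 16. The shortest class holds 10, 28, 18, 7 and 14 HMRs in these blocks. Blocks also differed from 2 to 5 kb, where clone E was at 0.203 on chromosome 10 but at 0.460 on chromosome 1.

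Over all blocks together the other clones were also higher in long HMRs than in short ones. From 5 to 10 kb clone I was at 0.382, P at 0.270, K at 0.241, T at 0.207 and L at 0.165. Outside the blocks these clones were at 0.195, 0.180, 0.172, 0.136 and 0.111 in that class. Under 2 kb they lay between 0.0551 (T) and 0.102 (L) in the blocks, below their levels of 0.0748 to 0.111 outside. Single blocks departed from this. On chromosome 16 clone L was at 0.209 under 2 kb and at 0.134 from 5 to 10 kb, and clone I at 0.237 and 0.238. There the HMRs under 2 kb were above the level outside the blocks in every clone but T. On chromosome 15 clone L was at 0.202 and 0.139. From 5 to 10 kb clone T on chromosome 16 (0.125) and clone K on chromosome 9 (0.163) were below their levels outside. A block holds 7 to 28 HMRs under 2 kb.

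**Figure D3:**
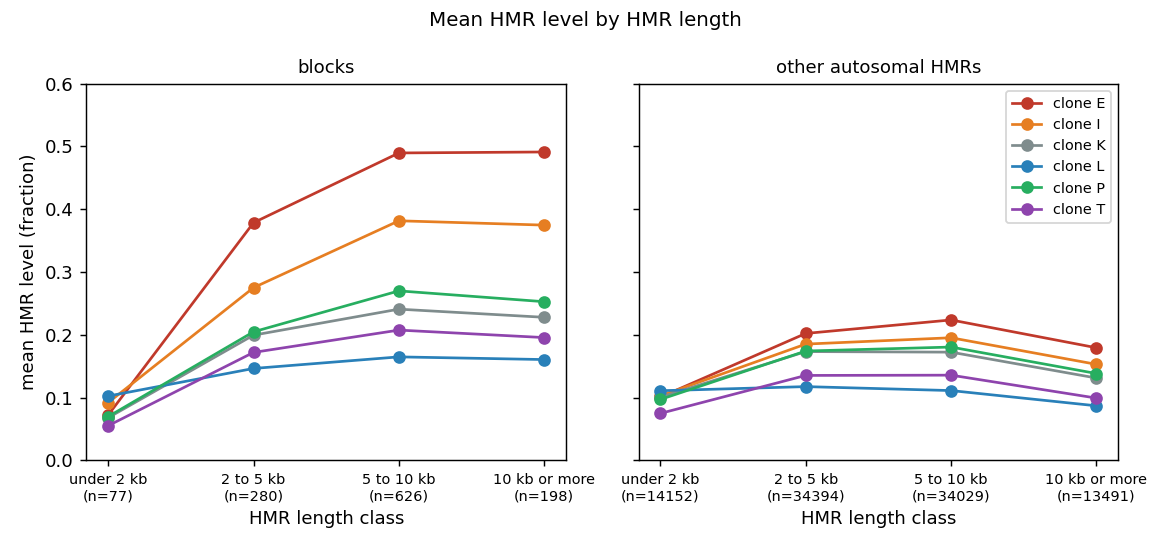
Mean HMR level (fraction, vertical axis) by HMR length class for the 6 clones, in the blocks (left) and in the other autosomal HMRs (right). Clone E reaches 0.490 at 5 to 10 kb in the blocks and 0.224 elsewhere, and all clones lie between 0.0551 and 0.102 under 2 kb in the blocks.

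The blocks held longer and fewer HMRs than the autosomes as a whole. The choice did not use these features directly. Since the level of clone E followed HMR length, they are not free of the choice and are a description. Their median length was 6408 bp, against 4974 bp over autosomal HMRs, with block medians of 7300 bp on chromosome 15, 6732 bp on 10, 6464 bp on 1, 6244 bp on 16 and 5622 bp on 9. HMRs under 2 kb made up 6.52% of the blocks and 14.6% of autosomal HMRs, and those of 5 kb or more 69.8% and 49.7%. All 5 blocks held fewer HMRs than the median window (385). Chromosome 10 had the fewest, 134, rank 19 from the lowest of the 258 windows, and chromosome 1 the most, rank 99. The median distance to the next HMR was 12045 bp in the blocks and 5950 bp over the autosomes, and by block it ran from 6585 bp on chromosome 16 to 38485 bp on chromosome 10. HMRs covered 8.79% of the block on chromosome 10, 13.0% on 15, 13.2% on 9, 22.5% on 16 and 24.4% on 1, where the median window had 21.8%.

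Extent was read from windows of 1 Mb. A window with at least 3 HMRs was called raised where clone E was at least 0.2 above the mean of the other 5 clones, and a run could bridge a gap of 1 window. Of the 49 windows of the blocks with at least 3 HMRs, 22 were raised, against 87 of 2377 autosomal windows (3.66%). Clone E was the highest clone in 43 of the 49. Both counts are touched by the choice on clone E, so nothing is read from them. Raised windows had a median HMR length of 5306 to 8607 bp. The 27 others ran from 1891 to 7932 bp, and their differences from -0.0143 to 0.197 with a median of 0.147. The summed extent depends on the threshold and on the level of each clone. It was 28 Mb here, 60 Mb at a difference of 0.1, 1 Mb at 0.3 and 8 Mb with each clone centred on its autosomal mean. When centred, the longest run was 3 Mb on chromosome 16, 2 Mb on 9 and 15, 1 Mb on 10 and 0 Mb on 1. Over the 49 windows, which were chosen on clone E, the difference correlated with the share of HMRs of 5 kb or more at r = 0.860 (rho = 0.743). Over all 2377 autosomal windows it was r = 0.483 (rho = 0.542). Both are a description over neighbouring windows of the same clones.

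The run on chromosome 16 was the longest, 10 Mb from 66 to 76 Mb, and began before the block. All 10 of its windows were raised, with a mean of 0.424 in clone E, 0.259 in I, 0.217 in P, 0.190 in K, 0.138 in L and 0.119 in T. Its left edge was gradual. Clone E minus the others was 0.141 from 64 to 65 Mb, 0.155 in the next window and 0.237 in the first raised one. Its right edge was abrupt, from 0.266 in the window from 75 to 76 Mb to 0.00803 in the next, which held 4 HMRs with a median length of 1891 bp and 0 of 5 kb or more. In that window all clones lay between 0.0406 and 0.0839. It began at 69 Mb without clone T. The last windows of the block did not belong to the run, but clone E was high again from 79 to 80 Mb, at 0.495 against 0.332, and past the block from 80 to 81 Mb, at 0.502 against 0.255.

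Chromosome 9 had a run of 7 Mb from 76 to 83 Mb, which began 4 Mb before the block and of which 5 windows were raised. Without clone K, L or T it was 3 Mb long, from 80 to 83 Mb, and with windows of 0.5 Mb it was 2.5 Mb. It held the widest difference of any window in the blocks, 0.354 from 82 to 83 Mb, where clone E was at 0.572, I at 0.385 and the other 4 clones between 0.161 and 0.187. The next window was at 0.0806 and had a median HMR length of 2049 bp. From 84 to 85 Mb, where HMRs were long again, the order was another one, with 0.526 in I, 0.487 in E, 0.446 in T, 0.333 in P, 0.241 in K and 0.172 in L. A further raised window lay from 87 to 88 Mb (0.470 in E against 0.217), followed by a window of 9 short HMRs at 0.00463 in E and 0 in I and K.

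On chromosome 1 the difference was 0.165 or more in every window from 141 to 152 Mb, but the runs past the threshold were 142 to 145 Mb and 149 to 152 Mb, both 3 Mb long. Without clone I they were 1 run of 10 Mb, from 142 to 152 Mb, and without clone P the longest was 148 to 152 Mb. Between them clone I caught up with clone E. From 146 to 147 Mb clone E was at 0.563 and I at 0.558, and in the next window 0.566 and 0.565. From 142 to 143 Mb they were at 0.498 and 0.409. Its highest level on this chromosome's stretch, 0.608, clone E had in the window from 150 to 151 Mb, just past the block. The right edge took 2 windows. The difference was 0.104 from 152 to 153 Mb, and all 6 clones were between 0.0284 and 0.0439 from 153 to 154 Mb, where the median HMR was 1649 bp long. Before the block, the window from 139 to 140 Mb was at 0.468 in E and 0.335 in I, and the short HMRs of the following window at 0.139 and 0.142.

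The runs on chromosomes 10 and 15 were 35 to 39 Mb and 45 to 49 Mb. The first was 32 to 39 Mb without clone I and 37 to 39 Mb without clone L, and with windows of 0.5 Mb the longest was 31.5 to 33.5 Mb. On chromosome 10 the window from 32 to 33 Mb was raised too, with the highest level of clone E in the 5 blocks, 0.647, against 0.554 in I, 0.475 in P, 0.374 in K, 0.286 in T and 0.176 in L. The run ended at 39 Mb, where the difference went from 0.239 to -0.0143 and the median HMR length from 6974 to 1959 bp. On chromosome 15 the windows before the run were close to the threshold, at 0.147 to 0.197. After it the window from 49 to 50 Mb was at 0.168, and the one from 50 to 51 Mb at -0.0110, with clone E at 0.00541.

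**Figure D4:**
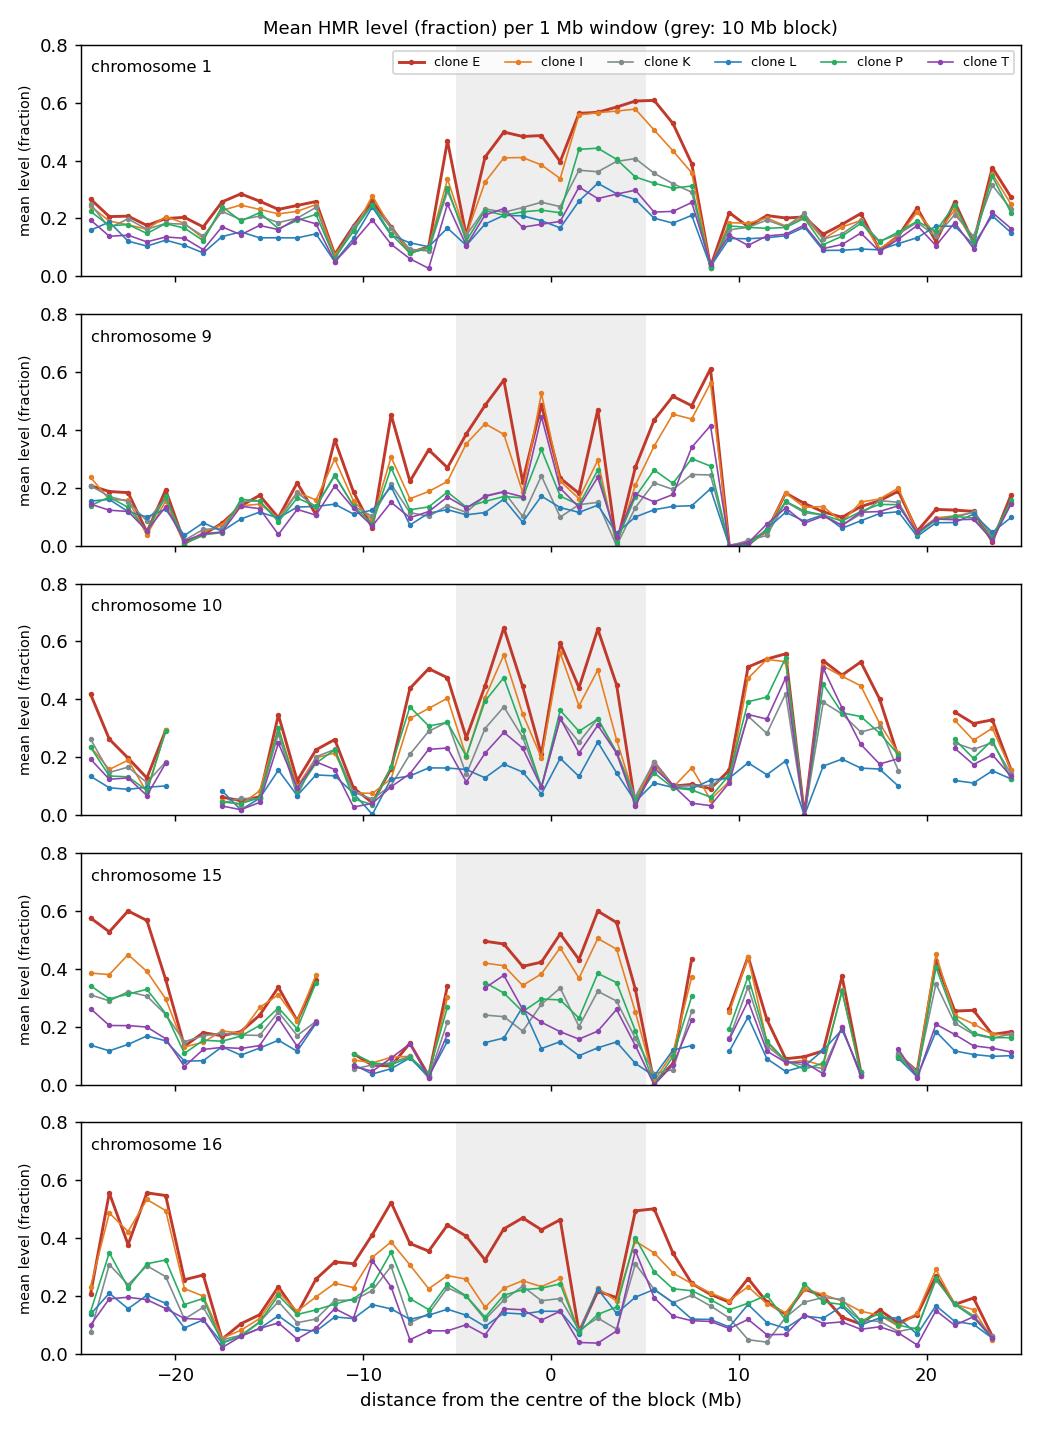
Mean HMR level (fraction, vertical axis) in 1 Mb windows with at least 3 HMRs, by distance from the centre of each block (Mb, horizontal axis); grey marks the 10 Mb block and colours the clones. Clone E is the top line in 43 of the 49 windows within the blocks, and the lines of all clones meet near the floor at windows of short HMRs such as the one 8.5 Mb to the right of the centre on chromosome 1.

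With HMRs of 5 kb or more alone, a setting chosen after seeing the lengths, the runs became longer on 3 chromosomes. They reached from 28 to 39 Mb on chromosome 10, 142 to 152 Mb on chromosome 1 and 41 to 49 Mb on chromosome 15, and were the same on chromosomes 16 (66 to 76 Mb) and 9 (76 to 83 Mb). The sum of the longest run of each block was 46 Mb, against 28 Mb with all HMRs. The longest run that touches no block also grew, to 7 Mb against 4 Mb with all HMRs. Past the edges, long HMRs were mostly still high in clone E. In the nearest outside window with at least 3 of them it was at 0.423 and 0.445 left and right on chromosome 1, 0.431 and 0.382 on chromosome 15, and 0.419 and 0.424 on chromosome 16, with differences from the others of 0.120 to 0.223. The left window on chromosome 15 was 32 to 33 Mb, away from the edge, since 8 windows between held too few long HMRs. The right window on chromosome 16, 78 to 79 Mb with 5 long HMRs, was itself raised and opened a further run to 81 Mb. The right side on chromosome 9 was at 0.502 and the left side on chromosome 10 at 0.40. Low levels stood at the other 2 edges, at 0.155 in E against 0.104 left on chromosome 9 and 0.233 against 0.213 right on chromosome 10.

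The place of clone T differed from block to block and within blocks. On chromosome 16 it was the lowest clone in 6 of the 10 windows of the block, and in the run it was as low as 0.0502 from 67 to 68 Mb and 0.0666 from 71 to 72 Mb. Clone L was the lowest in 8 of 10 windows on chromosomes 9 and 10 each and in 8 of 9 on 15, and on chromosome 1 clones L and T were the lowest in 5 windows each. On chromosome 15 clone T was at 0.334 and 0.378 in the windows from 41 to 43 Mb, above K and L, and at 0.183, 0.158 and 0.185 from 45 to 48 Mb, below K and P. On chromosome 9 it reached 0.446 from 84 to 85 Mb and was at 0.131 to 0.186 from 80 to 83 Mb.

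Named HMRs show how wide the gap of clone E could be. For each block the 3 HMRs of at least 1 kb with the widest gap between clone E and the highest other clone were taken. The widest of all, chromosome 16 from 70814152 to 70818158, had 0.529 in clone E and was listed at 0 in the other 5 clones. Chromosome 9 from 87587240 to 87593214 likewise had 0.438 in E and was listed at 0 in the others. Also on chromosome 16, the HMR from 71888357 to 71895534 was at 0.655 in E, 0.208 in K, 0.194 in I, 0.167 in L, 0.134 in P and 0.121 in T. The one from 75388839 to 75393201 was at 0.652 in E, 0.236 in P, 0.139 in I, 0.118 in T, 0.0333 in L and 0 in K. At these 4 HMRs clone I was at 0.194 or lower.

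At the remaining HMRs of this kind on chromosomes 9 and 10, clone I or T was second. On chromosome 9 the HMR from 83599870 to 83604720 was at 0.850 in E, 0.40 in T, 0.375 in I, 0.333 in P, 0.20 in K and 0.125 in L, and the one from 82373990 to 82378966 at 0.556 in E and 0 to 0.143 in the others. On chromosome 10 the HMR from 38032061 to 38040533 was at 0.703 in E, 0.286 in I and 0.111 to 0.194 in the others. A neighbour from 38010652 to 38020682 was at 0.732 in E, 0.369 in I and 0.20 to 0.333 in the others. The third on chromosome 10, from 38511572 to 38517745, was at 0.556 in E and 0 to 0.20 in the others.

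On chromosome 1 the HMR from 141444163 to 141448660 was at 0.556 in E, 0.154 in P and 0 to 0.143 in the rest, and the one from 143936809 to 143941734 at 0.569 in E, 0.219 in I and 0.0294 to 0.134 in the rest. The HMR from 149378068 to 149385131 was at 0.850 in E, 0.571 in I, 0.50 in K and P, 0.40 in T and 0.368 in L, so that all 6 clones were above their autosomal means. On chromosome 15 the 3 widest gaps were 0.305 (from 45816282 to 45824829), 0.286 (from 46503939 to 46512007) and 0.261 (from 48750972 to 48757712), with clone E at 0.571, 0.50 and 0.627.

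The longest HMR of each block did not show the widest gaps. On chromosome 1 it spanned 30677 bp from 141725346 to 141756023 and was at 0.421 in E, 0.375 in I, 0.290 in T, 0.286 in K, 0.273 in P and 0.20 in L. On chromosome 9 it spanned 24847 bp from 81478342 to 81503189, with 0.538 in E and 0.50 in I against 0.136 to 0.167 in the other 4. On chromosome 10 it spanned 16861 bp from 32270372 to 32287233, at 0.600 in E, 0.408 in I, 0.354 in P, 0.240 in K, 0.122 in T and 0.0801 in L. On chromosome 15 clones E and I were both at 0.50 over 20243 bp from 46826200 to 46846443, with 0.10 in L. On chromosome 16 the longest, 26777 bp from 72088524 to 72115301, was at 0.222 in E, 0.125 in L, 0.0217 in P and 0 in I, K and T.

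Some HMRs within the blocks went the other way. On chromosome 9 the HMR from 83606000 to 83610583, next to the one at 0.850 in clone E, was at 0.333 in E against 0.609 in T, 0.545 in I and 0.538 in P, and at 0.176 and 0.167 in K and L. On chromosome 16 an HMR of 1151 bp from 78237105 to 78238256 was at 0.154 in E, 0.143 in T and 0.308 to 0.438 in the others. The lowest differences from the median of the others were -0.125 on chromosome 15 (from 49386035 to 49389971), -0.0655 on chromosome 10 (from 33926160 to 33927772) and -0.0200 on chromosome 1 (from 146252534 to 146254499).

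The contrast of the study, intravasating against non-intravasating clones, was then applied to the blocks. Over all members the mean of clones E and T was 0.312 and that of I, K, L and P 0.237. These means are a description, since clone E chose the blocks, and 6 clones could not reach a p under 0.05 in an exact permutation test (the smallest is 0.0667). Clone T, the other intravasating clone, was at 0.187, within the range of the non-intravasating clones (0.156 to 0.336). It lay within their range in every block except on chromosome 16, where it was at 0.120 against 0.135 to 0.228.

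HMR by HMR, limma called 5 of the 1181 members for clone T against I, K, L and P, all higher in T, at an adjusted p under 0.05. This is 0.423%, below the background of 1.12% called higher over all HMRs (0.00295% were called lower). Clone T minus the mean of I, K, L and P was -0.0499 over all members and -0.0281 over autosomal HMRs outside the blocks. With each clone centred on its autosomal mean far fewer HMRs were called, among members and over all HMRs alike. The calls also moved when clone I, L or P was left out. Clone T is alone in its group in each of these fits, so nothing is read from such counts. The largest call was on chromosome 9 from 89963623 to 89965306, at 0.257 in T, 0.158 in E, 0.0312 in P and 0 in I, K and L (limma adjusted p = 0.0123). The next, on chromosome 16 from 71870927 to 71878628, was at 0.10 in T and 0.333 in E and listed at 0 in the other 4. The third, on chromosome 9 from 80179753 to 80180545, was at 0.0769 in T and 0.0833 in E and listed at 0 in the others. All 5 calls are HMRs at or near 0 in the non-intravasating clones. For E and T against the rest limma called 1 member higher (0.0847%, backgrounds 0.158% higher and 0.00197% lower), that same HMR on chromosome 9. Without clone T it called 41 members (3.47%), against 3.10% of all HMRs. Nothing is read from these counts, since clone E chose the blocks.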

How the data were processed

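Genomic DNA was bisulfite converted and sequenced with paired-end reads of 76 nt, per the labels' protocols. The authors deposited a methylation level per HMR and clone as a fraction. The combining of the 2 rounds and of the sites of an HMR, the aligner and the HMR caller were not given in the sources used here, and coverage is unknown. The submitters' processing notes name mm10 with no role. The promoter table has no coordinates and was not used here.

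HMRs were taken by start in the 5 ranges. Means weight each HMR equally. The limma package 3.58.1 under R 4.3.3, with a trend of variance on the mean and Benjamini-Hochberg adjustment over all 101564 HMRs, was tested on simulated data, and assumes that the lone clone T varies like the others. Python 3.11.15, pandas 2.3.3, NumPy 2.4.6, SciPy 1.17.1 and Matplotlib 3.10.9 did the rest.

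HMRs named were, per block, the 3 of at least 1 kb with the widest gap of clone E, the longest, the one of at least 1 kb lowest in E against the median of the others, and up to 3 called members. The members and lists were chosen with earlier results of these data known. Alternatives were other summaries, gaps, windows, thresholds and scales (logit bounded at 0.01 and 0.99), centring each clone on its autosomal mean, and each clone left out.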

Additional observations from a re-analysis of the deposited data

How the results depend on the processing

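The difference of clone E from the other clones over all members (0.209) was 0.160 to 0.251 under other summaries and with clones centred, and 0.191 to 0.237 with each clone left out. Under 2 kb it was -0.00528 in all blocks together, -0.0140 on chromosome 1 and -0.0177 on chromosome 9. The 163 HMRs with a gap of 0.2 became 461 at a gap of 0.1, 9 at 0.4 and 110 with clones centred. With 1 of the other clones left out they numbered 168 to 419, a change that can only keep or raise the count. The summed extent of 28 Mb became 60 Mb at a window difference of 0.1, 1 Mb at 0.3, 8 Mb with clones centred and 46 Mb with HMRs of 5 kb or more. It was 21 to 38 Mb with a clone left out, so extents depend on the threshold and on the clone-wide level. Members called for T against I, K, L and P numbered 0 with clones centred and 0 at a mean level of at least 0.1, with 60 and 37 at an unadjusted p under 0.05, and 5 to 10 with a clone left out. For E and T against the rest the counts were 0 and 0 (118 and 62 at an unadjusted p under 0.05) and 1 to 41. The cause of these moves was not tested. Clone T is alone in its group against I, K, L and P, so nothing is read from those counts. For E and T with clones centred, 9.99% of members and 4.23% of all HMRs had an unadjusted limma p under 0.05. At a mean level of at least 0.1 the shares of those tested were 6.35% and 3.27%. Over all HMRs the adjusted calls were 6 and 3 in these settings. Clone E chose the blocks, so nothing is read from these shares. No paired analysis was possible because both rounds of a clone share 1 column. A coverage minimum could not be run without coverage.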

Other observations

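Outside the blocks 65 further 1 Mb windows were raised in clone E by the same rule, and runs that touch no block were at most 4 Mb long. With HMRs of 5 kb or more alone they were at most 7 Mb long. In that setting 17 runs reached 3 Mb or more, of which 6 touch a block. On chromosome 15 the 4 windows from 20 to 24 Mb had a mean of 0.568 in clone E, 0.402 in I, 0.320 in P, 0.307 in K, 0.218 in T and 0.140 in L. Their mean difference of clone E from the others, 0.290, was above that of each of the 8 raised runs that touch a block (0.237 to 0.274). Chromosome 4 from 92 to 94 Mb was at 0.313 by the same measure. Chromosome 12 from 37 to 41 Mb had 0.495 in E against 0.117 (L) to 0.348 (I). Chromosome 16 from 51 to 55 Mb, before the run of that block, had 0.554 in E and 0.506 in I. The run of that block, from 66 to 76 Mb, was at 0.424 and 0.259, likewise over its raised windows. Runs of 3 Mb or more numbered 13 in all, of which 6 touch a block. These runs were chosen after their values were seen.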
